A study of Mus musculus with 45 samples.

Results

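The S1pr4 gene, deleted in the mice of this study, lies on chromosome 10, and the genes described here are 54 protein-coding genes that flank it, of 55450 genes in the deposited table. They were chosen by position around S1pr4 together with measured differences between S1PR4-/- and WT cells in these same libraries, so the genotype differences below are given as descriptions and are not tests of the choice. The members span mm10 positions 80540922 to 83195900 of chromosome 10, a window of 2.655 Mb, with 40 members on the centromeric side of S1pr4 (Rexo1 to Ncln) and 14 on the distal side (Gna15 to Chst11). S1pr4 itself (chr10:81497747-81500132, minus strand) is not a member.

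RNA was sequenced from 4 sorted populations of the draining popliteal lymph node of S1PR4-/- mice and their WT littermates, 8 to 12 weeks old and of both sexes, all immunized in the footpad with 50 µg ovalbumin and 5 µg LPS in 20 µl of an incomplete Freund's adjuvant emulsion. TFH cells (TCRβ+ CD4+ PD1+ CXCR5+) and non-TFH cells (TCRβ+ CD4+ PD1- CXCR5-) were taken on day 6, and germinal center (GC) B cells (B220+ GL7+ Fas+) and non-GC B cells (B220+ GL7- Fas-) on day 9. Each group held 6 samples, except non-GC B cells with 5 WT and 4 S1PR4-/- samples, giving 45 in all. The mutant allele was made in embryonic stem cells of the 129P2 strain (strain label B6.129P2-S1pr4tm1Dgen/J), it removes the gene from every cell of the animal, and the colony had at least 10 generations of backcrossing to C57/BL6. Animals carrying such an allele can keep donor-strain DNA beside it, WT littermates need not, and in this design effects of that DNA on a flanking gene and effects of losing S1pr4 cannot be told apart.

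S1PR4 is a receptor for the lysophospholipid sphingosine-1-phosphate, a signal that guides lymphocyte positioning and exit from lymph nodes, and it couples to heterotrimeric G proteins. The stretch of chromosome around it is gene-dense and of mixed function. It holds the genes for G protein alpha subunits (Gna15 and Gna11 of the Gq family), the thymine DNA glycosylase gene Tdg, which excises mismatched or oxidized pyrimidines from DNA during base excision repair and demethylation, zinc finger genes with close copies beside them (Zfp781, Gm3055, Gm32687), and housekeeping genes such as Oaz1 and Eef2.

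The 45 libraries held 26299429 to 45548215 expected counts, no 2 samples were identical, and the highest correlation between any pair was 0.986. S1pr4 had 0 to 40 counts in the S1PR4-/- samples and 505 to 6305 in the WT samples, so every library matched its label. Levels are given as CPM (counts per 1000000, with library factors from the trimmed mean of M-values over all 45 samples), and a gene was called where edgeR's quasi-likelihood test gave an adjusted p (FDR) under 0.05 and a fold change over 1.5. T cell markers summed to at least 9313 CPM in the T cell samples, and B cell markers to at least 7692 CPM in the B cell samples. B cell markers were also present in the T cells. All 12 of the list were detected in every T cell group, and they summed to 159 to 488 CPM in WT and 161 to 303 CPM in S1PR4-/- TFH samples, and to 64.5 to 107.8 and 61.6 to 73.8 CPM in WT and S1PR4-/- non-TFH samples. Plasma cell markers (8 genes, all detected) summed to 285 to 662 CPM in WT and 241 to 289 CPM in S1PR4-/- TFH samples. In the GC B cells they summed to 4044 to 8887 CPM in WT and 2061 to 17946 CPM in S1PR4-/- samples. T cell markers summed to 132 to 169 CPM in WT and 121 to 203 CPM in S1PR4-/- GC B samples. In WT and S1PR4-/- non-GC B samples they summed to 86.7 to 134 and 70.3 to 134 CPM. Covariate fits used B cell and plasma cell markers in T cells, and T cell markers in B cells. Beyond these the part of such cells in the results was not tested, and plasma cell markers in the GC B cells entered no fit. The plasma cell list holds Irf4, which the paper names among typical TFH markers. In bulk samples, fewer cells expressing a gene and less RNA per cell cannot be told apart.

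The promoters of 5 of the members described in every sample are shown first, and then stretches of transcripts with near-identical copies, because expected counts divide reads between transcripts that share sequence. The promoters (250 bases before to 50 after the annotated start, RefSeq, GRCm38.p6) of 2 neighbouring zinc finger genes, Gm3055 (chr10:81771125-81771424, minus strand) and Zfp781 (chr10:81930463-81930762, minus strand), were identical over all 300 bases. Capitals mark CCAAT and GGAAGT on either strand (read as ATTGG and ACTTCC on the other), the core motifs bound by NF-Y and by ETS factors.

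Gm3055 and Zfp781: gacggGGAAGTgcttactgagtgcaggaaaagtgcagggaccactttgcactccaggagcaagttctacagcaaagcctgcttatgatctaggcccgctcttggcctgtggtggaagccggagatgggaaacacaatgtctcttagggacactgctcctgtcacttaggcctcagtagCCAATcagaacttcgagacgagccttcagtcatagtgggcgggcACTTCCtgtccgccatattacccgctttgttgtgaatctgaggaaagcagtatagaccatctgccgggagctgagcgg

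Gna15, chr10:81524176-81524475, minus strand: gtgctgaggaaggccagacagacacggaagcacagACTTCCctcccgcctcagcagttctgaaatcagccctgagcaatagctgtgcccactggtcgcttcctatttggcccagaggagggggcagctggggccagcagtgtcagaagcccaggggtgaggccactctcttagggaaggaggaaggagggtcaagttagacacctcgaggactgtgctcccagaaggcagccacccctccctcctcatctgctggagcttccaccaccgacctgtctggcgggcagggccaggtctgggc

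Tdg, chr10:82629588-82629887, plus strand: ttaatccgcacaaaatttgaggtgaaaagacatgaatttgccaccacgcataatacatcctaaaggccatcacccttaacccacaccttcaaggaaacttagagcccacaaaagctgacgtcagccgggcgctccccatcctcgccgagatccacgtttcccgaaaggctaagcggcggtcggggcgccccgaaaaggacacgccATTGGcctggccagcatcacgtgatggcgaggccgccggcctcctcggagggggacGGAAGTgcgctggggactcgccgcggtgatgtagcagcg

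1190007I07Rik, chr10:82623179-82623478, minus strand: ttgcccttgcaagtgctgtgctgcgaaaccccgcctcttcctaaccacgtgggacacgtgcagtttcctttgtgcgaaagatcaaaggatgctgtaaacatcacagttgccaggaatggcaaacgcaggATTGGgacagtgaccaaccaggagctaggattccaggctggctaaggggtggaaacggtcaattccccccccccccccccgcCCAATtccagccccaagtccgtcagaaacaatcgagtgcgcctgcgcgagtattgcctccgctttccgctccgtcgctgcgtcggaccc

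Of the 54 members, 51 had a promoter entry. CCAAT was present on either strand in 21 of the 51 (41.2%), against 37.9% of all 27025 promoters. GGAAGT was present in 17 (33.3%), against 24.1%, and TATAAA in 5 (9.80%), against 14.2%. The members' promoters were rich in CG dinucleotides, with a median of 25 against 7 over all promoters, but those of Gna15 (6) and of Gm3055 and Zfp781 (10) had few.

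The closest copies differed by few bases along the whole transcript (GENCODE, mm10). Gm3055 and Zfp781 matched at 4063 of 4067 aligned bases, with 0 of the 4 mismatches in the 729 bases of coding sequence and identical runs of up to 1964 bases. Gm32687 and Zfp433, a zinc finger gene of the same cluster that is no member (chr10:81704825-81726686, plus strand), differed at 3 of 2379 aligned bases, all 3 in coding sequence. Of all 54 members, 38 shared under 1% of their 31-base words with other genes and 10 shared at least 10%, among them 1190007I07Rik, with 17.7% in common with the pseudogene 1810014B01Rik. A stretch of Gm32687 around a mismatch is shown beside Zfp433 with the differing base in capitals.

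Gm32687, chr10:81879064-81879123, plus strand: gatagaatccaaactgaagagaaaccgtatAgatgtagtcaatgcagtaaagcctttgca

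Zfp433, chr10:81719954-81720013, plus strand: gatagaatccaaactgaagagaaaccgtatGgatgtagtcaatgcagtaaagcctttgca

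Tdg has processed pseudogenes elsewhere in the genome. Its 2959-base transcript differed from Tdg-ps (chr15:82516311-82519278, plus strand) at 72 of 2942 aligned bases, 14 of them in coding sequence. From Gm9855 (chr10:42054113-42055306, minus strand, 39442 kb from S1pr4), which holds little beyond the coding sequence, it differed at 9 of 1194 bases, with an identical run of 756 bases. The 60 bases below are among those that tell the copies apart, with every base that differs among the 3 in capitals.

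Tdg, chr10:82648578-82648637, plus strand: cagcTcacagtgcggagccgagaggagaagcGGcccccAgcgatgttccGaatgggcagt

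Tdg-ps, chr15:82517535-82517594, plus strand: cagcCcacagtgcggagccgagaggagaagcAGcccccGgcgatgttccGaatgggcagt

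Gm9855, chr10:42054196-42054255, minus strand: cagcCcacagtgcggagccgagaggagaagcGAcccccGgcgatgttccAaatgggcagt

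The members called between the genotypes all lay on the distal side, although other fits also called centromeric members: Matk in non-GC B cells with DESeq2, Tbxa2r in TFH cells with a block for the replicate number, and Ncln in non-TFH cells with B cell and plasma cell markers as a covariate. Of the 14 distal members, 6 (Gna15, Gm3055, Gm32687, Zfp781, 1190007I07Rik and Tdg) were called in at least 1 population, against 0 of the 40 centromeric members. In TFH cells, 5 of 51 members tested were called (1 higher and 4 lower in S1PR4-/- cells), where 0.511% of all 13495 genes tested were called. In non-TFH cells, 5 of 51 were called (1 higher, 4 lower), where 0.114% of all genes were. In GC B cells, 5 of 53 were called, all lower, where 0.0612% of all genes were. In non-GC B cells, 4 of 52 were called, all lower, where 0.0537% of all genes were. Since these comparisons chose the members, nothing is read from the counts against their background or from the contrast between the 2 sides. Gm3055, Gm32687 and Tdg were called in all 4 populations, Gna15 in all but non-TFH cells, Zfp781 in TFH and non-TFH cells, and 1190007I07Rik in non-TFH and GC B cells. When reads of the near-identical copies were summed before the fit, an alternative chosen after seeing the data, 2 entries were called in each population.

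**Figure D1:**
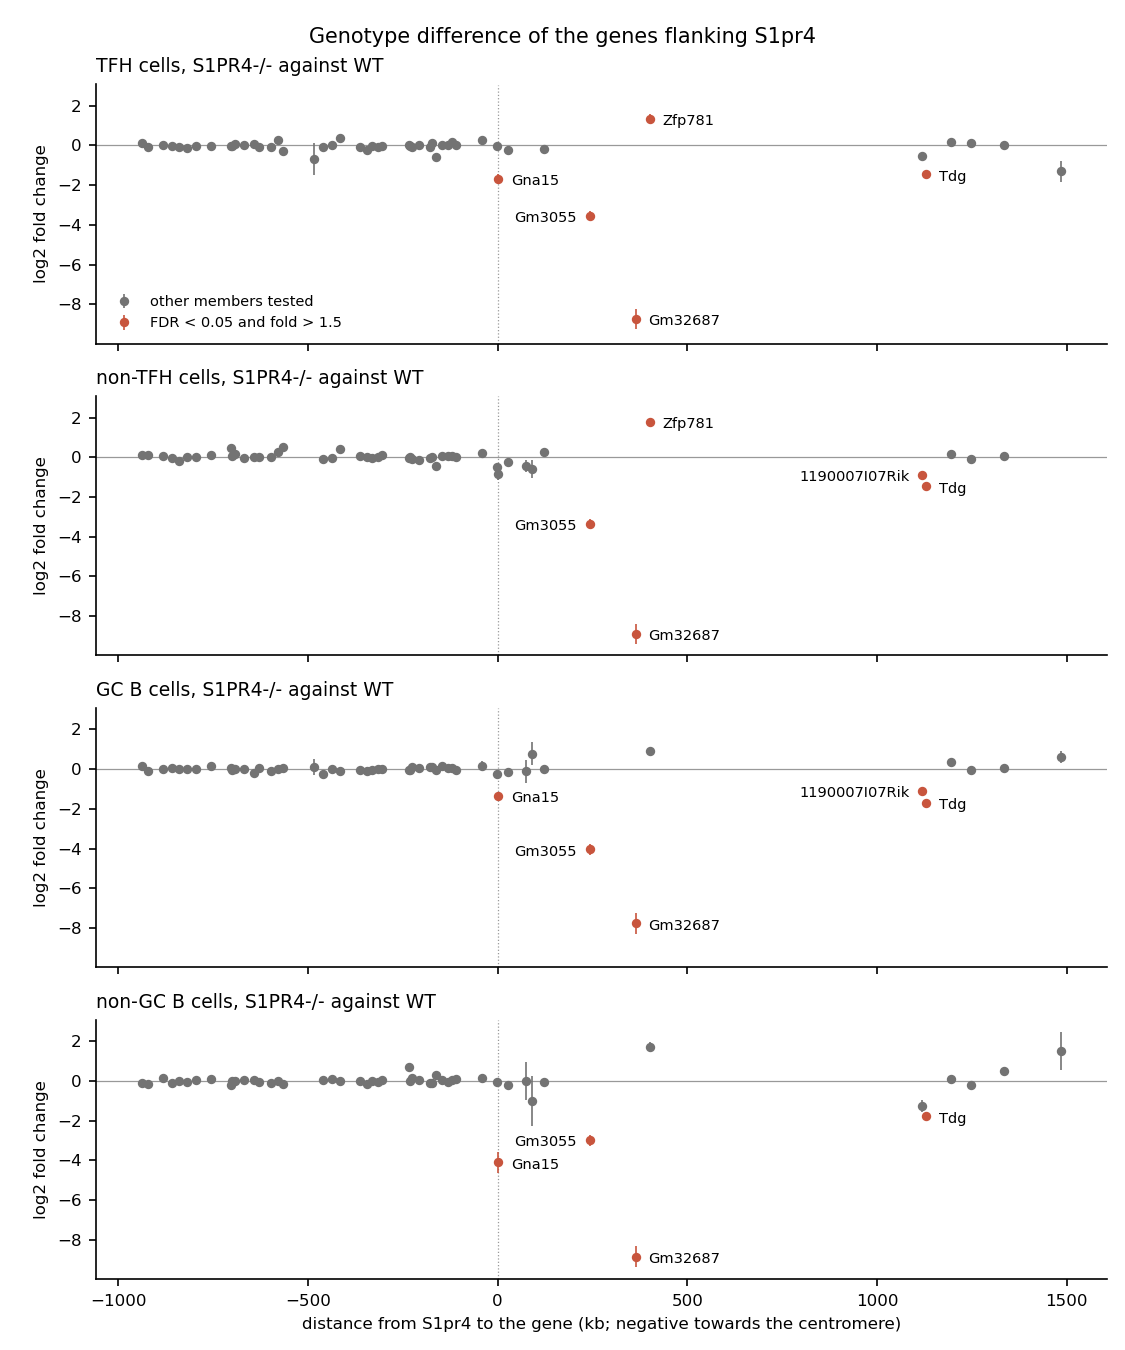
Log2 fold change (S1PR4-/- against WT, error bars SE) of each tested member against its distance from S1pr4 in kb, 1 panel per population, with called members in red. The 6 called members lie to the right of 0 (distal), and centromeric members with at least 5 CPM in WT cells of each population range from -0.58 (Tbxa2r, TFH) to 0.71 (Matk, non-GC B).

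Other genes in the same window that are not members were called in no population (0 of 23, 25, 26 and 29 tested in TFH, non-TFH, GC B and non-GC B cells). Outside the window but within 5 Mb of S1pr4, 1 of 96 genes tested was called in TFH cells (Ckap4, a gene of an endoplasmic reticulum membrane protein, chosen for naming after its value was seen) and 0 of 87, 95 and 91 in the other populations. At the centromeric edge, the last member inside, Rexo1, had log2 differences of 0.10, 0.11, 0.17 and -0.12 in the 4 populations (in the order TFH, non-TFH, GC B, non-GC B, used throughout), and the first gene outside, Tcf3 (chr10:80409514-80433647), had 0.01, 0.00, 0.14 and -0.01. At the distal edge, the last member inside, Chst11, had -1.31 ± 0.54 (SE), no value, 0.59 ± 0.31 and 1.51 ± 0.96 at counts of 0 to 68, and the first gene outside, Slc41a2 (chr10:83230848-83337882), had -0.61 ± 0.47, no value, 0.21 ± 0.12 and 0.13 ± 0.13.

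Gna15 (ENSMUSG00000034792.8, chr10:81502306-81524225, minus strand) encodes Gα15, a promiscuous Gq-family subunit expressed mainly in hematopoietic cells. S1pr4 lies 2.17 kb beyond its 3′ end, on the same strand. In TFH cells its level was 21.5, 27.2 and 38.0 CPM (lowest, median and highest of 6) in WT and 4.08, 10.2 and 11.4 CPM in S1PR4-/- samples. In GC B cells it was 9.58, 10.7 and 14.0 CPM in WT and 2.46, 4.58 and 5.85 CPM in S1PR4-/- samples. The genotypes did not overlap in either population. In non-GC B cells the 5 WT samples had 22.9, 32.3, 30.0, 25.3 and 21.4 CPM and the 4 S1PR4-/- samples 0.0677, 2.12, 1.94 and 1.94 CPM, the first of them at 2 counts. Every S1PR4-/- non-GC B sample lay more than 10-fold below the lowest WT sample. In non-TFH cells the genotypes overlapped, with 5.24, 8.04 and 10.5 CPM in WT and 1.57, 4.09 and 8.64 CPM in S1PR4-/- samples.

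As log2 fold changes, S1PR4-/- against WT, these were -1.68 ± 0.22 (SE) in TFH, -0.83 ± 0.32 in non-TFH (not called), -1.35 ± 0.20 in GC B and -4.10 ± 0.53 in non-GC B cells. The fold difference of group means ranged from 1.78 in non-TFH to 17.4 in non-GC B cells. The direction was the same in each of the 45 fits that left out 1 sample, but the call in GC B cells was lost in 9 of 12 such fits (adjusted p 0.0589 to 0.108 by edgeR) and that in non-GC B cells in 4 of 9 (0.0519 to 0.0865). The GC B call was also lost with T cell markers as a covariate (-1.30 ± 0.21, edgeR adjusted p = 0.0739), with all 8 groups in the fit (adjusted p = 0.180) and with the replicate block (0.275). The non-GC B call was also lost by limma voom (adjusted p = 0.0510) and with the replicate block (edgeR, 0.209). In comparisons of genotypes this block matches WT and S1PR4-/- samples, which come from different mice, by number alone.

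**Figure D2:**
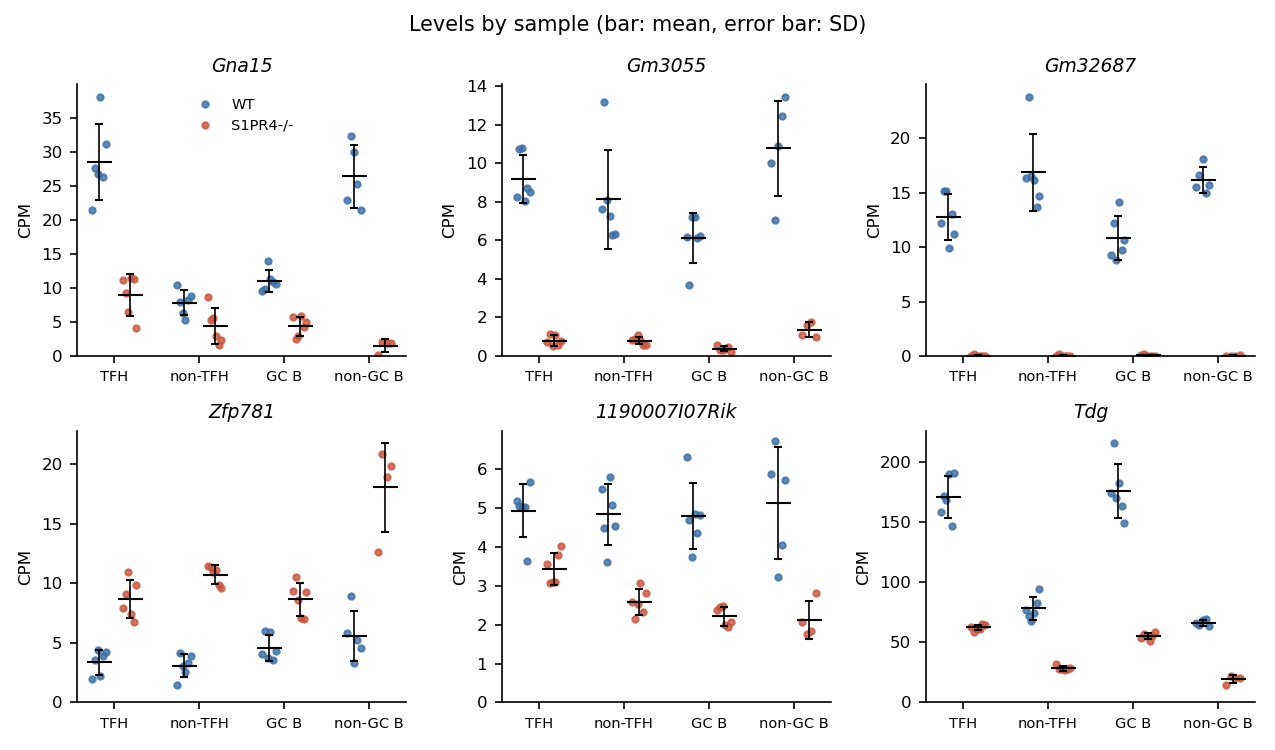
CPM of the 6 members in each sample (points, WT blue and S1PR4-/- red; bar, mean; error bar, SD) in the 4 populations, 6 samples per group except non-GC B cells (5 WT, 4 S1PR4-/-). Gm32687 is at or near 0 in all S1PR4-/- samples, and Zfp781 is the only one of the 6 with a higher mean in S1PR4-/- cells.

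Tdg (ENSMUSG00000034674.18, chr10:82629828-82650799, plus strand) lies 1130 kb distal of S1pr4. In TFH cells it had 146.8, 169.8 and 190.3 CPM (lowest, median, highest) in WT and 58.6, 62.1 and 65.3 CPM in S1PR4-/- samples. In non-TFH cells it had 67.7, 75.9 and 94.4 CPM in WT and 26.7, 27.7 and 31.8 CPM in S1PR4-/- samples. In each population the highest S1PR4-/- sample lay below the lowest WT sample. In GC B cells it had 149.0, 171.8 and 215.5 CPM in WT and 51.2, 54.9 and 58.1 CPM in S1PR4-/- samples. In non-GC B cells the WT samples had 66.1, 64.7, 68.6, 69.0 and 63.3 CPM and the S1PR4-/- samples 14.4, 22.2, 20.3 and 19.9 CPM. The log2 fold changes, -1.46 ± 0.07, -1.47 ± 0.08, -1.68 ± 0.08 and -1.78 ± 0.12, were close to each other. The difference between the effects in TFH and non-TFH cells was 0.00 on the log2 scale (95% interval -0.21 to 0.21), and that between the B cell populations (GC minus non-GC) 0.11 (-0.19 to 0.40).

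The counts of the Tdg pseudogenes did not follow Tdg alike. Gm9855 and Tdg-ps were higher in S1PR4-/- samples. Gm9855 had 0.153 to 1.14 CPM across the WT samples and 13.5 to 57.4 CPM across the S1PR4-/- samples, and Tdg-ps 0 to 0.182 CPM in WT and 3.76 to 13.8 CPM in S1PR4-/- samples. A further copy, Gm5597, which differed from Tdg at 8 of 1193 aligned bases, was low throughout and went the same way as Tdg, at 0 to 15 counts in WT and 0 or 1 in S1PR4-/- samples. Of the counts of Tdg, Gm9855 and Tdg-ps together, Tdg held 99.2% to 99.8% in every WT sample and 45.6% to 52.9% in every S1PR4-/- sample, with means of 48.7%, 50.7%, 50.2% and 49.2% in the 4 populations. The sum of these 3 genes, lower in S1PR4-/- cells, had log2 fold changes of -0.43 ± 0.07, -0.49 ± 0.07, -0.69 ± 0.08 and -0.77 ± 0.10, or 1.35-, 1.41-, 1.61- and 1.71-fold. Which of the copies the shared reads came from cannot be told apart in these counts. The loss of the call for the sum in TFH and non-TFH cells came from the fold limit of 1.5.

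**Figure D3:**
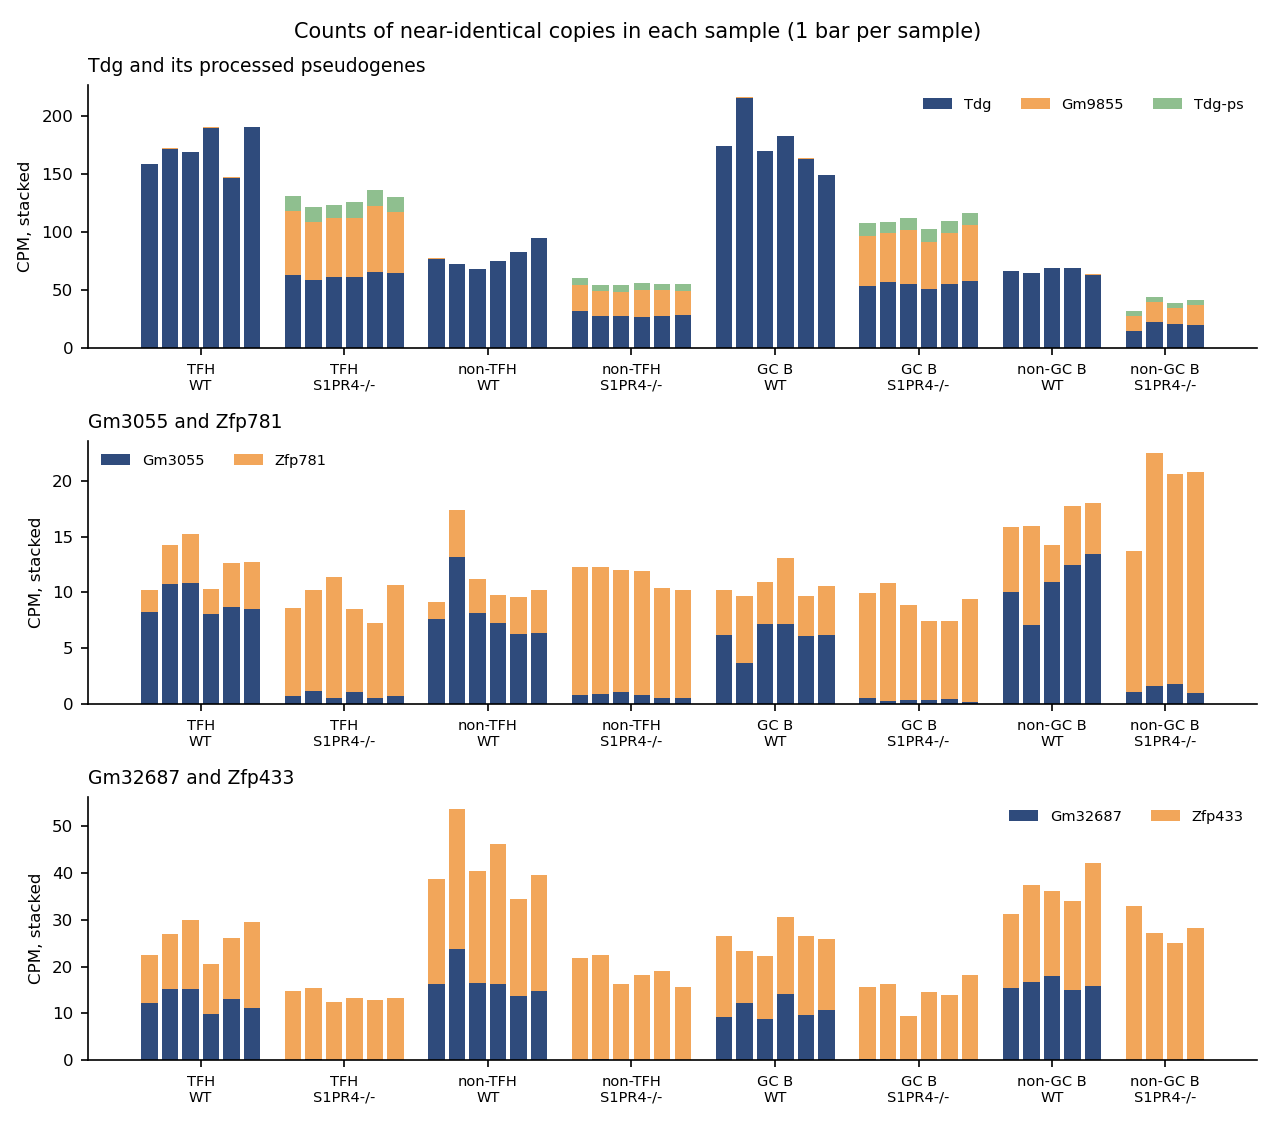
CPM stacked within each sample (1 bar per sample, grouped by population and genotype) for Tdg with Gm9855 and Tdg-ps, for Gm3055 with Zfp781, and for Gm32687 with Zfp433. Tdg holds nearly the whole WT bar and 45.6% to 52.9% of the S1PR4-/- bar, Gm3055 gives way to Zfp781, and Gm32687 is missing from the S1PR4-/- bars.

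Gm3055 (ENSMUSG00000094622.2, chr10:81742821-81771161, minus strand) and Zfp781 (ENSMUSG00000096718.2, chr10:81901911-81930480, minus strand) are the pair with identical promoters, and their counts differed in opposite directions. In TFH cells, Gm3055 had 8.03, 8.63 and 10.8 CPM in WT and 0.507, 0.730 and 1.14 CPM in S1PR4-/- samples, and in non-TFH cells 6.27, 7.44 and 13.2 CPM and 0.575, 0.809 and 1.08 CPM. In GC B cells it had 3.67, 6.21 and 7.21 CPM in WT and 0.178, 0.355 and 0.556 CPM in S1PR4-/- samples. In non-GC B cells it had 10.0, 7.08, 10.9, 12.5 and 13.4 CPM in the WT samples and 1.08, 1.62, 1.77 and 0.972 CPM in the S1PR4-/- samples. The genotypes were apart in all 4 populations, by log2 fold changes of -3.53 ± 0.21, -3.36 ± 0.23, -4.04 ± 0.26 and -2.98 ± 0.27.

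Zfp781 had 1.94, 3.73 and 4.41 CPM in WT and 6.72, 8.49 and 10.9 CPM in S1PR4-/- TFH samples, and 1.48, 3.19 and 4.18 CPM and 9.61, 11.0 and 11.4 CPM in non-TFH samples. In GC B cells it had 3.59, 4.16 and 5.97 CPM in WT and 6.97, 8.91 and 10.6 CPM in S1PR4-/- samples. In non-GC B cells it had 5.81, 8.88, 3.28, 5.22 and 4.55 CPM in WT and 12.6, 20.9, 18.9 and 19.8 CPM in S1PR4-/- samples. Here too no S1PR4-/- sample overlapped a WT sample, although only the T cell populations passed the test as reported. Zfp781 in non-GC B cells passed under 6 other settings (adjusted p 6.233e-07 by DESeq2, 0.0353 by limma voom and, by edgeR, 0.0002067 without a filter, 3.605e-05 with all 8 groups in the fit, 0.0407 with Xist and 0.0382 with T cell markers as a covariate), and in GC B cells under DESeq2 (0.0002673). The log2 fold changes were 1.35 ± 0.21, 1.80 ± 0.20, 0.91 ± 0.17 and 1.71 ± 0.26. The call in TFH cells was lost with B cell and plasma cell markers as a covariate (1.46 ± 0.31, edgeR adjusted p = 0.0974).

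Added together, the counts of Gm3055 and Zfp781 differed far less between the genotypes than either alone, with log2 fold changes of -0.42 ± 0.14, 0.04 ± 0.15, -0.25 ± 0.12 and 0.25 ± 0.15, none of them called. Gm3055 made up 73.2%, 72.6%, 57.3% and 66.3% of the pair in WT cells and 8.63%, 6.93%, 4.10% and 7.06% in S1PR4-/- cells.

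Gm32687 (ENSMUSG00000112640.1, chr10:81863934-81881081, plus strand) was nearly absent from S1PR4-/- counts. In WT samples it had 390 to 586 counts in TFH, 498 to 778 in non-TFH, 252 to 525 in GC B and 443 to 688 in non-GC B cells. In S1PR4-/- samples it was at 0 in 5 of 6 TFH, 5 of 6 non-TFH, 4 of 6 GC B and 3 of 4 non-GC B samples, and the others had at most 6, 7, 5 and 4 counts. In CPM, the WT samples had 9.92, 12.6 and 15.2 (lowest, median, highest) in TFH, 13.7, 16.3 and 23.7 in non-TFH and 8.79, 10.2 and 14.2 in GC B cells, and 15.5, 16.7, 18.1, 15.0 and 15.7 in the 5 non-GC B samples. Fitted log2 fold changes of -8.74, -8.87, -7.77 and -8.84 depend on the prior count and on these few reads, and moved to between -12.3 and -7.50 when single samples were left out.

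Zfp433, its near-identical neighbour, had 10.2 to 18.2 CPM in WT and 12.4 to 15.2 CPM in S1PR4-/- TFH cells and was called in no population (log2 fold changes 0.05 ± 0.13, -0.42 ± 0.12, -0.04 ± 0.15 and 0.51 ± 0.15). The sum of Gm32687 and Zfp433 had log2 fold changes of -0.93 ± 0.10, -1.16 ± 0.12 and -0.82 ± 0.13 in TFH, non-TFH and GC B cells, each with an adjusted p under 0.05 by edgeR in a fit with the sum in place of its parts, and -0.35 ± 0.11 in non-GC B cells, which did not pass (edgeR adjusted p = 0.981). With the other near-identical copies summed as well, the GC B sum was not called either. Gm32687 held 49.4%, 39.9%, 41.8% and 45.2% of that sum in WT cells and 0.195%, 0.172%, 0.312% and 0.111% in S1PR4-/- cells. Zfp433 in non-GC B cells had 20.0 ± 4.06 CPM (SD, n = 5) in WT and 28.4 ± 3.37 CPM (n = 4) in S1PR4-/- samples.

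1190007I07Rik (ENSMUSG00000063320.11, chr10:82619851-82623228, minus strand), an uncharacterised gene next to Tdg on the opposite strand, was low in every population. In TFH cells it had 3.62, 5.03 and 5.68 CPM in WT and 3.06, 3.33 and 4.01 CPM in S1PR4-/- samples, which overlap through 1 WT sample. In non-TFH cells it had 3.61, 4.80 and 5.80 CPM in WT and 2.14, 2.56 and 3.07 CPM in S1PR4-/- samples. In GC B cells it had 3.73, 4.74 and 6.31 CPM in WT and 1.93, 2.22 and 2.47 CPM in S1PR4-/- samples, and neither of these populations overlapped between genotypes. In non-GC B cells it had 5.87, 6.72, 3.23, 4.04 and 5.72 CPM in the WT and 2.06, 1.75, 1.83 and 2.82 CPM in the S1PR4-/- samples, again apart though not called (DESeq2 and the fit of all 8 groups called it, adjusted p = 0.0209 and 6.007e-05). The log2 fold changes were -0.53 ± 0.14, -0.90 ± 0.16, -1.11 ± 0.15 and -1.27 ± 0.29. The call in non-TFH cells was lost in 5 of 12 fits that left out 1 sample (edgeR adjusted p 0.0508 to 0.0592) and with B cell and plasma cell markers as a covariate (-0.70 ± 0.22, adjusted p = 0.679) or Xist (-0.77 ± 0.17, 0.208).

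Proximity to S1pr4 did not order the differences. The nearest member, Ncln (nicalin, an endoplasmic reticulum membrane protein), ends 1.36 kb from S1pr4 and had log2 fold changes of -0.04 ± 0.06, -0.51 ± 0.07, -0.26 ± 0.08 and -0.07 ± 0.10. In non-TFH cells its WT samples (109.1 to 147.8 CPM) and S1PR4-/- samples (84.1 to 97.2 CPM) did not overlap, a difference under the fold limit. Nfic, a nuclear factor I transcription factor, had 0.25 ± 0.14, 0.20 ± 0.16, 0.16 ± 0.26 and 0.17 ± 0.15. Celf5, an RNA-binding protein of the CELF family, had at most 7 counts in any sample and entered no test. On the distal side, Gna11, the Gq-family subunit next to Gna15, had -0.25 ± 0.08, -0.21 ± 0.07, -0.14 ± 0.09 and -0.20 ± 0.14, and its samples overlapped between genotypes in all 4 populations. Tle2, a Groucho-type transcriptional corepressor, was not tested in TFH cells and had -0.44 ± 0.29, -0.12 ± 0.60 and 0.00 ± 0.95 in the others. After Gna15 at 2.17 kb, the 4 members from Gna11 at 28.6 kb to Sirt6, a sirtuin-family deacylase, at 121.7 kb were not called. The other 5 called members followed each other without a gap in the list, from Gm3055 at 242.7 kb to Tdg at 1130 kb, and the last 4 members beyond Tdg (Hcfc2, Nfyb, Txnrd1 and Chst11) were not called. The list was chosen with these differences known, so its order does not show an unbroken block. BC024063, which is not a member and was called in no population, lies between Zfp781 and 1190007I07Rik.

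Of the other 48 members, 43 had at least 5 CPM in WT cells of each population, and most of these differed little by genotype. Their log2 difference lay within 0.2 of 0 for 36 members in TFH, 34 in non-TFH, 40 in GC B and 40 in non-GC B cells, with median SEs of 0.07 to 0.11. The extremes at that level were Tbxa2r (thromboxane A2 receptor) at -0.58 and Thop1 (a thimet oligopeptidase) at 0.37 in TFH, Ncln at -0.51 and Gadd45b (a stress-response adaptor) at 0.53 in non-TFH, Ncln at -0.26 and Hcfc2 (a host cell factor) at 0.35 in GC B, and Gna11 at -0.20 and Matk (a Csk-type kinase) at 0.71 in non-GC B cells. Tbxa2r had 17.8 to 20.96 CPM in WT and 9.75 to 15.0 CPM in S1PR4-/- TFH samples, and Matk 11.2 to 17.5 CPM in WT and 18.8 to 25.5 CPM in S1PR4-/- non-GC B samples. Neither pair of groups overlapped, nor did those of Gadd45b in TFH or Txnrd1 (thioredoxin reductase) in non-GC B cells, and none of these passed both limits of the call. The share of all genes whose genotypes did not overlap was not counted, so nothing is read from a lack of overlap in any member. With the adjusted p alone as limit, Tbxa2r and Gadd45b in TFH cells and Ncln in non-TFH cells also passed.

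By function, Tdg and Zfp781 were the members called among the 13 for transcription, chromatin and DNA repair, which also include Dot1l, Nfyb, Pias4 and Klf16. None of the 8 members for kinases, stress and cell cycle (among them Mknk2, Map2k2 and Fzr1), the 8 for RNA processing and translation (Eef2, Sf3a2, Lsm7), the 12 for membranes, transport and protein sorting (Ap3d1, Scamp4, Timm13) or the 5 metabolic and nuclear lamina genes (Oaz1, Thop1, Lmnb2) was called by genotype in any population. Among the 5 members for G protein and lipid signalling, Gna15 alone was. The 3 members grouped as uncharacterised loci (Gm3055, Gm32687 and 1190007I07Rik) were all among the called members. The sign of the difference was the same in all 4 populations for 17 of 49 members tested in all (34.7%). Of the 17, 11 were lower and 6 higher in S1PR4-/- cells. Over all genes the sign was the same for 1839 of 11324 (16.2%). Every member called by genotype kept its sign in all 4 populations and so is among the 17. Since the genotype comparisons chose the members, nothing is read from the 34.7% against the 16.2%.

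Lists of genes that work with the members elsewhere in the genome were counted against the shares of all genes called by genotype, 0.511%, 0.114%, 0.0612% and 0.0537% in the 4 populations. Of 18 genes of Gq family signalling (phospholipase C beta isoforms, IP3 receptors, protein kinase C isoforms and RGS proteins), 17 were tested in TFH cells and 1, Rgs2, a GTPase-activating protein for Gq subunits, was called, lower in S1PR4-/- cells; 0 of 16, 15 and 12 were called in the other populations. Of 24 genes of base excision repair and DNA demethylation (glycosylases, Apex1, Parp1, TET and DNMT enzymes), 0 of 24, 23, 23 and 22 tested were called. Their median log2 differences were 0.08, 0.05, 0.08 and 0.03, against medians over all genes between -0.01 and 0.01.

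Whether the genotype differences themselves differed between populations was tested by interaction terms in edgeR, on members chosen with the genotype comparisons known. Between TFH and non-TFH cells, 0 of 53 members had an adjusted p under 0.05, the only limit used here, where 0.0139% of all genes passed. An unadjusted p under 0.05 was reached by 7 of the 53 members, and by 9.21% of all genes. Between the B cell populations, 0 of 53 members and 0% of all genes passed, and 7 members and 4.58% of all genes had an unadjusted p under 0.05. Over all 4 populations, 2 of 53 members passed an adjusted p of 0.05, where 0.339% of all genes passed. They were Gna15 (edgeR adjusted p = 0.00587) and Chst11, a chondroitin sulfotransferase (adjusted p = 0.0489). An unadjusted p under 0.05 was reached by 15 members, and by 10.8% of all genes. For Gna15, the log2 effect in GC B cells was 2.77 above that in non-GC B cells (SE 0.56, 95% interval 1.58 to 3.96, edgeR adjusted p = 0.394). Chst11 ranged from 0 to 0.0545 CPM in WT and 0.128 to 0.513 CPM in S1PR4-/- non-TFH cells and was lower in S1PR4-/- than in WT TFH cells on average (0.202 and 0.514 CPM), all at 42 counts or fewer. Only the non-GC B samples were left out 1 at a time for this test, so its dependence on samples of the other populations was not examined. The call of Chst11 was lost without WT non-GC B sample 3 or without any of the 4 S1PR4-/- non-GC B samples, and Gna15 kept its call in all 9 such fits.

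The WT samples, which the choice of members by genotype did not compare, showed how the genes differ between the populations. Per kb of exon, the polyamine regulator Oaz1 (antizyme) and the translation elongation factor Eef2 were the 2 highest members in all 4 WT populations, from 246.3 (Eef2, non-GC B) to 484.2 CPM per kb (Oaz1, GC B), and Celf5 was the lowest, at 0.0110 CPM per kb or less. Tdg had 31.8 and 32.7 CPM per kb in WT TFH and GC B cells, and 14.5 and 12.3 in non-TFH and non-GC B cells. Gna15 had 13.4, 3.67, 5.16 and 12.3 CPM per kb in the 4 populations, and so was high in TFH and in non-GC B cells.

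Between TFH and non-TFH cells of WT mice, 18 of 52 members were called (10 higher and 8 lower in TFH cells; 34.6%), where 43.2% of all genes were. The members higher in TFH cells with the largest changes were Gadd45b (log2 fold change 2.44 ± 0.18, edgeR adjusted p = 1.72e-08), Gna15 (1.87 ± 0.17, 1.588e-07), Thop1 (1.42 ± 0.12, 8.224e-08), Matk (1.35 ± 0.15, 1.326e-06) and Fzr1, an activator of the anaphase-promoting complex (1.22 ± 0.08, 7.334e-09). Gadd45b had 56.7 to 65.6 CPM in TFH and 5.82 to 16.1 CPM in non-TFH samples. Tdg was higher by 1.13 ± 0.09. The members lower in TFH cells with the largest changes were Tle2 (-3.25 ± 0.46, 1.795e-05), Tbxa2r (-2.86 ± 0.12, 1.011e-10), Tle6, also of the Groucho family (-1.23 ± 0.36, 0.00676), Pip5k1c, which makes the phospholipase C substrate PIP2 (-0.96 ± 0.07, 1.85e-08), and Gna11 (-0.81 ± 0.08, 3.44e-07). Tbxa2r had 17.8 to 20.96 CPM in TFH and 107.7 to 184.9 CPM in non-TFH samples, and Tle2 no more than 60 counts in any sample of the study. The 2 Gq-family subunits thus differed in opposite directions between these T cells.

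Comparing GC B with non-GC B cells of WT mice, 18 of 53 members were called (10 higher and 8 lower in GC B cells; 34%), where 47.8% of all genes were. The members higher in GC B cells with the largest changes were Gng7, a G protein gamma subunit (3.42 ± 0.93, edgeR adjusted p = 0.00551, at low counts), Gadd45b (1.87 ± 0.13, 8.462e-08), Thop1 (1.67 ± 0.17, 2.142e-06), Tdg (1.47 ± 0.09, 4.194e-08) and the mitochondrial ribosomal protein gene Mrpl54 (1.18 ± 0.08, 1.198e-07). The members lower in GC B cells with the largest changes were the zinc transporter gene Slc39a3 (-1.21 ± 0.16, 2.342e-05), Gna15 (-1.19 ± 0.14, 7.592e-06), Gm3055 (-0.76 ± 0.20, 0.00482), Btbd2 (-0.69 ± 0.11, 0.0001534) and Nfic (-0.64 ± 0.18, 0.00749). Without single samples the calls of Nfic (3 of 11 fits), Scamp4, Klf16 and Gna11 (1 of 11 each) were lost here, and in the T cells those of Tjp3 (4 of 12), Sirt6 (3 of 12) and Ncln (1 of 12).

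Of the 52 members tested in both comparisons, 9 were called in both (17.3%, against 27.1% of 12236 genes). Thop1, Gadd45b, Fzr1, Tdg and Mrpl54 were higher in TFH than in non-TFH cells and in GC B than in non-GC B cells, and Gna11, Slc39a3 and Nfic were lower in both. Gna15 alone went in opposite directions, higher in TFH and lower in GC B cells. The share of members called in both that had the same direction was 88.9%, and that of all genes 88.9%.

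**Figure D4:**
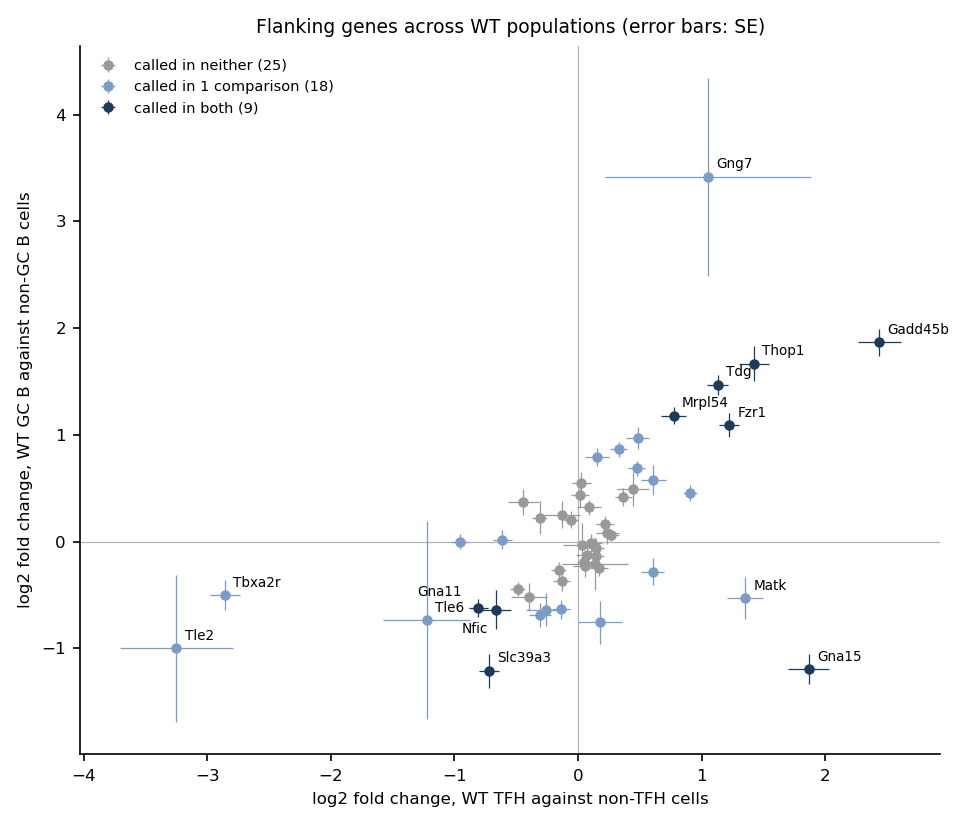
Log2 fold change of each of the 52 members tested in both comparisons, WT TFH against non-TFH cells (horizontal) and WT GC B against non-GC B cells (vertical), error bars SE, coloured by the number of comparisons that called it. Gna15 stands in the lower right part, and Gadd45b, Thop1, Fzr1, Tdg and Mrpl54 in the upper right.

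Some genes of the pathway lists for Gna15 and Tdg were called between the same WT populations, as were many genes outside them. Of the base excision repair and demethylation list, 5 were higher and 5 lower of 24 tested in TFH against non-TFH cells, and 9 higher and 3 lower of 23 in GC B against non-GC B cells. Of the Gq list, 7 were higher and 3 lower of 16 in TFH cells, and 3 higher and 4 lower of 15 in GC B cells. The shares called, 10 of 24 and 12 of 23, and 10 of 16 and 7 of 15, are read against the 43.2% and 47.8% over all genes. All but the 10 of 16 were near those shares, and nothing is read from these counts about the pathways.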

How the data were processed

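The authors deposited a table of expected counts per gene (RSEM 1.3.0 after cutadapt 2.10 and STAR 2.5.3, mm10, per the labels), 55450 genes by 45 samples, 0 columns without a sample; 8.83% of values were not whole and were rounded. The strand setting of the counting is not given in the sources used here. RSEM divides reads that match several transcripts between them, which bears on every member with a near-identical copy. Totals of 26299429 to 45548215 counts per sample set the precision. The members and gene lists were chosen with earlier results of these data known.

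Genotypes were compared within each population, and WT populations with each other, by edgeR 4.0.16 (R 4.3.3; trimmed mean of M-values, filterByExpr, quasi-likelihood F test, no covariates), with Benjamini-Hochberg adjustment over all genes tested; a call needed an adjusted p under 0.05 and a fold change over 1.5. Reported SEs are the log2 fold change over the square root of F. CPM used factors over all 45 samples. Replicates are taken as separate mice, as the study's methods give them. In their deviations from the group means, same-numbered WT and S1PR4-/- samples of a population correlated by -0.09 to 0.157. Same-numbered samples of 2 populations of the same genotype correlated by 0.0442 to 0.205 in T cells and -0.0483 to 0.0976 in B cells. The labels give no pairs, so numbers were not used as pairs. The tests between populations therefore treat samples that may share a mouse as independent. Members called in at least 2 populations are given in every sample; those past an interaction test, the 3 nearest to S1pr4 on each side and the 5 largest called changes each way between WT populations with group values; the rest by group. DESeq2 1.42.0, limma 3.58.1 (voom), other scalings and filters, the adjusted p alone, covariates and leaving out samples were tried; summing copies was added after seeing the data. The fits were tested on simulated data. Promoters came from RefSeq (GRCm38.p6), transcripts and coordinates from GENCODE (mm10), aligned and compared by 31-base words.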

Additional observations from a re-analysis of the deposited data

Results flagged for a closer look

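In 7 of the 45 groups of 4 to 6 samples tested for the 6 members, 1 sample lay far from the others by Dixon's test, where chance gives about 1 in 20. Gna15 had 14.0 CPM in WT GC B replicate 3, against 9.58 to 11.2 CPM in the others, and 0.0677 CPM in S1PR4-/- non-GC B replicate 1, against 1.94 to 2.12 CPM. Tdg had 31.8 CPM in S1PR4-/- non-TFH replicate 1, against 26.7 to 28.4 CPM. WT non-TFH replicate 2 was high both for Gm3055 (13.2 CPM, against 6.27 to 8.12) and for Gm32687 (23.7 CPM, against 13.7 to 16.5). Gm3055 had 3.67 CPM in WT GC B replicate 2, against 6.13 to 7.21 CPM, and 1190007I07Rik 3.62 CPM in WT TFH replicate 5, against 5.02 to 5.68 CPM. That WT TFH sample of 1190007I07Rik was the only WT sample of its group within the range of the S1PR4-/- samples (3.06 to 4.01 CPM). None of the 7, left out, turned the direction of a genotype difference.

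The genotype effect differed among the 4 populations for Gna15 (F = 13.3, edgeR adjusted p = 0.00587) and Chst11 (F = 8.55, adjusted p = 0.0489), on members chosen with the genotype comparisons known.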

How the results depend on the processing

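No result reversed. The counts of members called stayed within 1.5 times the reported count in 52 of 63 other settings and 80 of 86 fits that left out 1 sample. For the interaction tests only non-GC B samples were left out, and no sample was left out for that of TFH against non-TFH cells. With copies summed (chosen after seeing the data), 2 entries were called in each population, in place of 5, 5, 5 and 4. DESeq2 called 7 members in non-GC B cells, the added ones being Matk, Zfp781 and 1190007I07Rik. With the adjusted p alone, 33 of 52 members (63.5%) differed between the WT T cell populations (TFH and non-TFH), against 68.7% of all genes. For the WT B cell populations (GC and non-GC) it was 35 of 53 members (66%), against 67.2% of all genes. Without a filter on low counts, 1 member (Gna15) differed in effect among the 4 populations. With the replicate block, 3 members were called by genotype in GC B cells (Gm3055, Gm32687, Tdg), 2 in non-GC B cells (Gm32687, Tdg), 6 in TFH (with Tbxa2r) and 5 in non-TFH cells, and 1 (Gna15) differed among the 4 populations. By genotype, the block matches samples of different mice by number alone. Same-numbered samples correlated by -0.09 to 0.157 between the genotypes and by -0.0483 to 0.205 between populations of the same genotype. Of the samples compared between sorted populations of the same genotype, 5 of 6 S1PR4-/- T, 4 of 6 WT T, 4 of 5 WT B and 0 of 4 S1PR4-/- B cell samples correlated best with their own number, a hint from the data. The labels do not say whether they share a mouse, and not every pair's correlation was over 0.1. Leaving out 1 sample gave 5 to 6 members in TFH, 4 to 5 in non-TFH, 4 to 5 in GC B and 3 to 5 in non-GC B cells, 16 to 19 between WT T cells and 16 to 20 between WT B cells, 0 to 1 for the effect in GC B against non-GC B cells (Gna15, without S1PR4-/- non-GC B replicate 1) and 1 to 3 among the 4 populations. The cause of these changes was not tested, except that summing leaves fewer entries. Of 220 log2 fold changes of the 6 members by genotype in other settings, 200 kept their side of the limits, 11 lost and 9 gained a call. Between WT populations only members called in the reported fits were followed, and all 144 of their values kept the call. Other members gained a call there. These were Sirt6 in the B cells by DESeq2 and with another scaling, and Dot1l and Matk in the B cells with the replicate block. In the T cells, Celf5 and Chst11 gained one without a filter. Low counts limit Gm32687 in S1PR4-/- cells, Chst11, Tle2, Tle6, Gng7 and Celf5.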
